A study of Homo sapiens with 3 samples.

Results

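A set of 10 secreted factors that promote or restrain blood vessel growth was followed across 3 cultures of human osteosarcoma sarcospheres: the growth factors VEGFA, VEGFB, VEGFC and PGF, the angiopoietins ANGPT1 and ANGPT2, the angiopoietin-like protein ANGPTL4, the peptide adrenomedullin (ADM), and the inhibitors SERPINF1 and THBS1. The genes were chosen by name, with earlier results of these data known. Of them, 9 had a named feature on the array, among 14836 named genes in all. ANGPT2 had none and was not analysed here. Each of the 9 had 1 feature, so its value is a single intensity per array and the array gives no second reading of it.

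All cultures came from the osteosarcoma line MNNG/HOS, which was derived from HOS cells by chemical transformation. Cells were grown for 5 days in serum-free DMEM/F12 and the floating spheres (sarcospheres), a culture form used to enrich for stem-like sarcoma cells, were collected. The untreated culture received nothing further, the second received TGF-beta1 at 4 ng/mL, and the third was grown in hypoxia at an oxygen level not given in the sources used here. Total RNA was labelled with Cy3 and measured on NimbleGen one-colour arrays, 1 array per culture. With 1 sample per group there is no replicate error and no test, so higher and lower describe these 3 arrays only.

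Solid tumours need new vessels once they outgrow the oxygen supply, and the cells secrete factors that act on neighbouring endothelium. VEGFA, acting through the receptors FLT1 and KDR with neuropilin co-receptors, is the main driver of sprouting, and its gene is a textbook target of the hypoxia-inducible factors (HIF). TGF-beta1 also reshapes the vascular secretome in many cell types, and thrombospondin 1 (THBS1) and pigment epithelium-derived factor (SERPINF1) oppose vessel growth.

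Marker lists were read for the cell types represented, and they cannot show which line was used. Of 8 measured mesenchymal and osteoblast-lineage markers, 6 were above the floor, a term used hereafter for a gene that, on the brighter of the 2 arrays compared, reaches the median of all gene values (409.6 untreated, 402 with TGF-beta1, 427 in hypoxia). VIM, the mesenchymal intermediate filament, stood between 29664 and 34423 and RUNX2, the osteoblast regulator, between 988 and 1336, whereas ALPL and THY1 lay below the floor. Others of that list differed: with TGF-beta1 FN1 (fibronectin) was 1.78-fold higher and TWIST1 1.83-fold lower, and in hypoxia COL1A1 (a collagen chain) was 1.79-fold lower than untreated. None of 8 measured endothelial markers was above it in any comparison, and their values ranged from 52.2 for ESAM to 215 for EGFL7. Of 4 measured blood cell markers, 1 was above the floor, the lysosomal gene CD68. In pericyte markers 3 of 5 were above it (PDGFRB, CSPG4 and NOTCH3), all within 1.5-fold between the arrays. In bulk RNA, fewer cells of a type and less RNA per cell cannot be told apart.

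Across the 9 factors, hypoxia was the brightest array for 6, TGF-beta1 for 2 and the untreated array for 1. Among all named genes, hypoxia was the brightest array for 35.9%, TGF-beta1 for 35.3% and untreated for 28.7%. VEGFA, VEGFB, PGF, ANGPTL4, ADM and THBS1 were brightest in hypoxia, VEGFC and ANGPT1 with TGF-beta1, and SERPINF1 without treatment. Of these, 4 factors (PGF, ANGPTL4, ADM and THBS1) were lowest with TGF-beta1 and highest in hypoxia. That order was seen in 21.5% of all named genes. With TGF-beta1, PGF, ADM and THBS1 were within 1.5-fold of untreated, and ANGPTL4 was below the floor in that comparison. ANGPT1 was below the floor on all arrays.

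**Figure D1:**
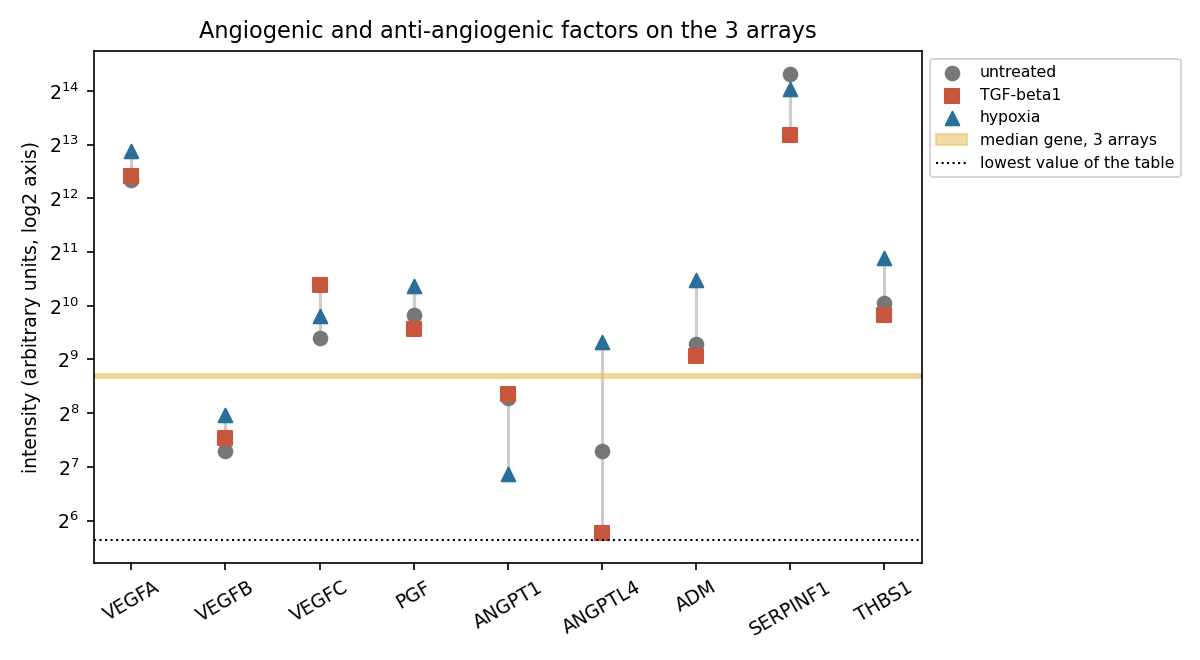
Intensity of each factor (vertical axis, arbitrary units, log2 axis) on the untreated, TGF-beta1 and hypoxia arrays, 1 point per array, with the median gene value of the 3 arrays as a band and the lowest value of the table as a dotted line. ANGPTL4 spans the widest range, from 54.8 with TGF-beta1 to 645 in hypoxia, and VEGFB and ANGPT1 lie below the band on all arrays.

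Which factors differed in hypoxia was asked first. ANGPTL4, ADM and THBS1 were at least 1.5-fold brighter in hypoxia than without treatment, and no factor above the floor was as much dimmer. That is 3 of the 7 factors above the floor, against 8.64% of 7820 named genes called higher and 5.69% called lower by the same rule. At 2-fold, ANGPTL4 and ADM were called, against 1.65% of genes higher and 0.985% lower. The median log2 difference over the 7 factors was 0.55, against 0.05 over all genes above the floor. ANGPTL4 passed the floor only through its hypoxia value and so had to differ, and with both arrays required above the floor ADM and THBS1 were left as 2 factors called higher, where 6.59% of 7014 genes were higher and 3.91% lower.

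ANGPTL4 codes for a secreted inhibitor of lipoprotein lipase that also acts on vessels and is a known HIF and PPAR target. It stood at 156 on the untreated array, 54.8 with TGF-beta1 and 645 in hypoxia. The hypoxia array was thus 4.12-fold brighter than the untreated one, a log2 difference of 2.04. That difference ranked 7 from the top among the 7820 genes above the floor, which ANGPTL4 passed only through its hypoxia value. Genes of like level that have several features differed between those features by an SD of 0.55 in this log2 difference, which gives the noise between features but not the variation between cultures.

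ADM codes for adrenomedullin, a vasodilator peptide and another known HIF target. Its intensities were 626 untreated, 539 with TGF-beta1 and 1424 in hypoxia. Hypoxia was 2.28-fold above untreated (log2 difference 1.19), where the SD between features at that level was 0.34, while the other 2 arrays lay within 1.5-fold of each other. Among genes above the floor, 0.921% had a larger increase.

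THBS1, a matricellular glycoprotein that restrains endothelial cells and also activates latent TGF-beta, was brighter in hypoxia too. It read 1057 untreated, 910.5 with TGF-beta1 and 1899 in hypoxia. The hypoxia value was 1.80-fold above the untreated one (log2 difference 0.85, with an SD between features of 0.34 at that level), and 2.94% of genes had a larger increase.

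The VEGF family showed smaller differences in hypoxia, and all its 4 genes were brighter there than on the untreated array. VEGFA stood at 5168 untreated, 5426 with TGF-beta1 and 7492 in hypoxia. That hypoxia value is 1.45-fold above untreated (log2 difference 0.54), just inside the 1.5-fold limit, and 1.92 times the SD of 0.28 between features at its level. PGF, placental growth factor, which binds FLT1, read 907 untreated, 759 with TGF-beta1 and 1329 in hypoxia, also just inside the limit at 1.47-fold. VEGFB, another FLT1 ligand, read 157, 186 and 251 in the same order. Its hypoxia difference was 1.60-fold, but all 3 values lay below the floor. VEGFC, the lymphatic growth factor that binds FLT4, read 677, 1341 and 894, and its hypoxia difference was 1.32-fold.

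ANGPT1, the only angiopoietin measured, and the inhibitor SERPINF1 read lower in hypoxia than untreated, SERPINF1 within 1.5-fold. ANGPT1, the TEK agonist that stabilises vessels, read 312 untreated, 327 with TGF-beta1 and 116 in hypoxia, a log2 difference of -1.42 for hypoxia minus untreated. All 3 values were below the floor, where the SD between features was 0.55, so it was not counted as lower. SERPINF1 read 20349, 9235 and 16763 in the same order of arrays, and its hypoxia difference of -0.28 was as large as the SD between features at its level, 0.28.

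The 250 bases before and 50 after the annotated transcription start were taken from RefSeq (GRCh38.p14) for the factors called in hypoxia and for VEGFC, the factor called higher with TGF-beta1. They are shown because HIF binds a short core, ACGTG or GCGTG, in known hypoxia-responsive genes. Capitals mark each match to that core on either strand, so that a match on the opposite strand reads CACGT or CACGC, and the gene's own strand is printed 5′ to 3′. The windows are chr19:8363905-8364204 on the plus strand for ANGPTL4, chr11:10304823-10305122 on the plus strand for ADM, chr15:39580829-39581128 on the plus strand for THBS1 and chr4:176792873-176793172 on the minus strand for VEGFC. Each spans the promoter and the first transcribed bases of its gene.
ANGPTL4: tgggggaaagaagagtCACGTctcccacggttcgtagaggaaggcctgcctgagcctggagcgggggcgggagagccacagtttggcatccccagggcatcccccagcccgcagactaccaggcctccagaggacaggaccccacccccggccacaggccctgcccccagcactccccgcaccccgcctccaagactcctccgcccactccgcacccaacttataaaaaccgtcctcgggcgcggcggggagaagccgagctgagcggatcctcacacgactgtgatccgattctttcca
ADM: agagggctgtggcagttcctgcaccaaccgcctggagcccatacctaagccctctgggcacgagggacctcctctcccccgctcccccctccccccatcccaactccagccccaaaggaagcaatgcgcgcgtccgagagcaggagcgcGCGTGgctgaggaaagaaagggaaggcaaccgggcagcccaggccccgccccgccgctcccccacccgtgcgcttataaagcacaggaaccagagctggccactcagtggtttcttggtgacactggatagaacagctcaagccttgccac
THBS1: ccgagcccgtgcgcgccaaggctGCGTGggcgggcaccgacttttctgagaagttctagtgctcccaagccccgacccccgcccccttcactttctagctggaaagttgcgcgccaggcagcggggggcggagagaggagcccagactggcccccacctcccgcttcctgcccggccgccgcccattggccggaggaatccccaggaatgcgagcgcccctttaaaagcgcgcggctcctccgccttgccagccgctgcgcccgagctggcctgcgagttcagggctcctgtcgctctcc
VEGFC: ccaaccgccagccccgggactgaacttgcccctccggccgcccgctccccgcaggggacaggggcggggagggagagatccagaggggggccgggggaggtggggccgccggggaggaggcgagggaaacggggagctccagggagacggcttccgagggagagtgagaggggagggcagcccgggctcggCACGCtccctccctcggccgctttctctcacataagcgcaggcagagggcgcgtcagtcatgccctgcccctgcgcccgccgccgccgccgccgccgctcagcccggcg

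The windows of ANGPTL4, ADM, THBS1 and VEGFC each hold 1 core match. In ANGPTL4 it is ACGTG on the opposite strand, 234 bases before the start. The other matches are GCGTG, at 101 bases before the start on the same strand in ADM, 227 before on the same strand in THBS1 and 59 before on the opposite strand in VEGFC. Promoter windows were available for 6 of the 9 measured factors, and none for VEGFA, ANGPT1 and SERPINF1. PGF has 2 overlapping windows, which hold the same core match. All 7 windows hold ACGTG or GCGTG, so all 6 factors do, where 48.4% of all 35116 windows of the same length hold either. ACGTG is in 21.4% and GCGTG in 36.5%, and some windows hold both. A half-site of the SMAD-binding element, CAGAC, was found on either strand in the windows of 4 factors (VEGFB, PGF, ANGPTL4 and THBS1) and in 45.3% of all windows. VEGFC and ADM had no CAGAC in these windows. Cores this short occur in many promoters, and a match describes the sequence and not binding.

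The second comparison asked which factors differed with TGF-beta1. VEGFC was called higher and SERPINF1 lower, and the other 4 factors above the floor were within 1.5-fold. That is 1 of 6 each way, close to the background of 12.6% of 7950 named genes higher and 11.5% lower. At 2-fold only SERPINF1 was called, against 3.25% of genes higher and 3.86% lower. The median log2 difference over the 6 factors was -0.22, against 0.05 over all genes above the floor. Both comparisons share the untreated array.

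VEGFC was brighter on the TGF-beta1 array, at 1341 against 677 untreated, with hypoxia between them at 894. The ratio was 1.98, a log2 difference of 0.98, or 3.18 times the SD of 0.31 between features at that level. By contrast VEGFA differed by 0.07 and PGF by -0.26 on the log2 scale, so the VEGF family did not move as a block on this array.

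SERPINF1, the abundant inhibitor, was 2.20-fold dimmer with TGF-beta1, at 9235 against 20349. Its log2 difference of -1.14 stands against an SD of 0.19 between features at its level, and 2.86% of genes above the floor had a lower value. THBS1 and ADM were nearly level with the untreated array, each with a log2 difference of -0.22. ANGPTL4 read 54.8 against 156 untreated, a log2 difference of -1.51, but neither value reached the floor and the lower one is near 50, below which the table holds no value, so the size of that difference is not settled. ANGPT1 (0.06) and VEGFB (0.24) were also below the floor.

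**Figure D2:**
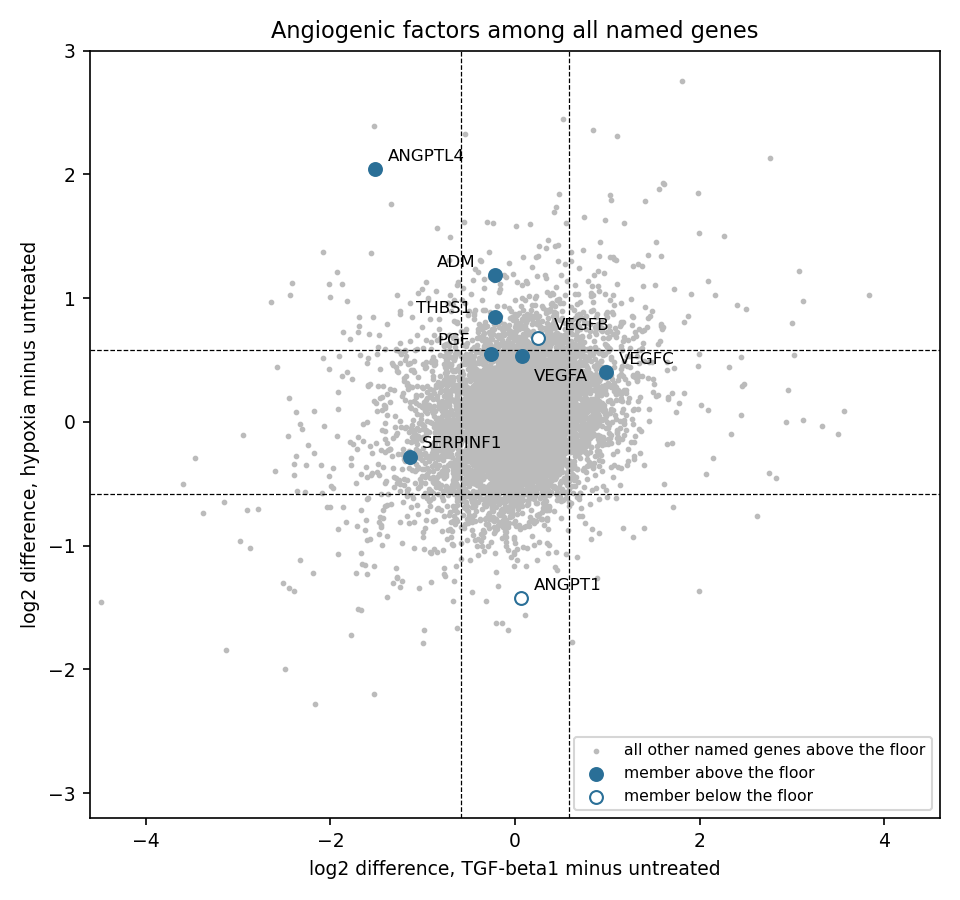
Log2 difference of TGF-beta1 minus untreated (horizontal) against hypoxia minus untreated (vertical), for all named genes above the floor in either comparison (grey) and for the 9 factors (blue, open where below the floor in both), with dashed lines at 1.5-fold. ANGPTL4, at -1.51 and 2.04, lies in the sparse upper left, VEGFC lies to the right at 0.98 and SERPINF1 to the left at -1.14; both axes share the untreated array.

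Set directly against hypoxia, the TGF-beta1 array was at least 1.5-fold dimmer for 5 of 7 factors above the floor (PGF, ANGPTL4, ADM, SERPINF1 and THBS1) and brighter for 0. Of 7941 named genes, 15.3% were called lower and 13.2% higher. At 2-fold, ANGPTL4, ADM and THBS1 were called lower, against 5.73% of genes lower and 3.26% higher. The median over the 7 factors was -0.86, against 0.01 over all genes above the floor. The log2 differences were -0.81 for PGF, -3.56 for ANGPTL4, -1.40 for ADM, -0.86 for SERPINF1 and -1.06 for THBS1. ANGPTL4 passed the floor here only through hypoxia and read near the table's minimum with TGF-beta1, so the size of its difference is not settled (-2.73 when 50 was added to each intensity), and with both arrays required above the floor the other 4 factors were called lower. VEGFC was the one factor above the floor that was brighter with TGF-beta1, at 0.58, which is 1.4996-fold and so just short of the limit. VEGFA differed by -0.47. With each array centred on its median, 19.1% of genes were higher and 11.3% lower in this comparison, and VEGFC was then called higher.

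**Figure D3:**
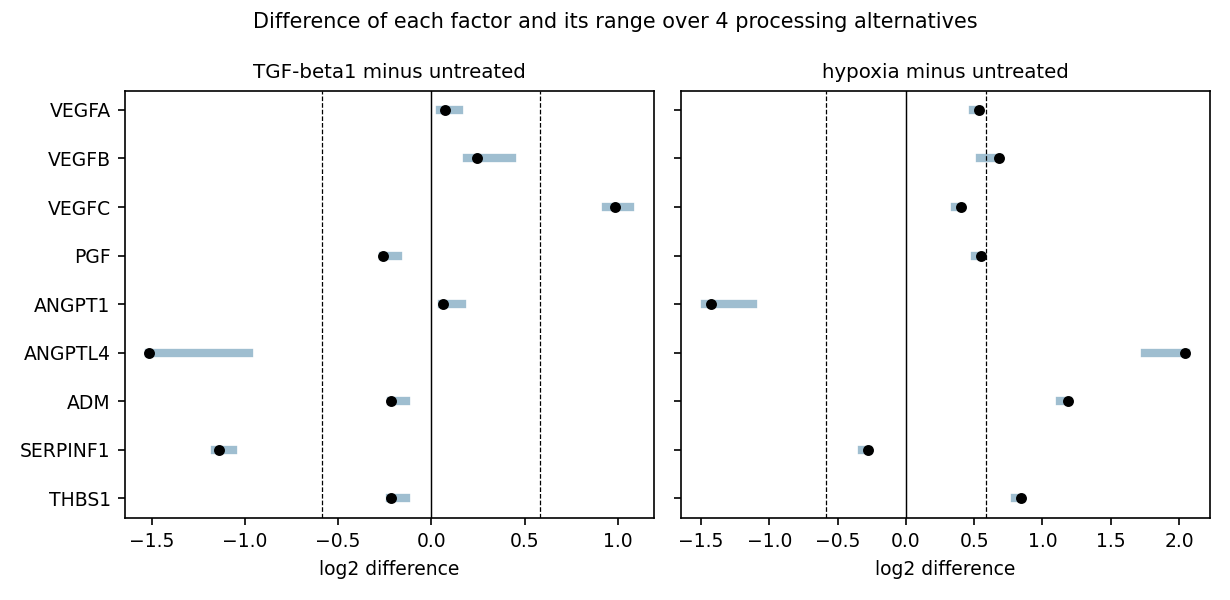
Log2 difference from the untreated array for each factor (points) and its range over 4 processing alternatives (bars), with dashed lines at 1.5-fold, for TGF-beta1 (left) and hypoxia (right). No bar crosses 0. The widest belong to dim factors, ANGPTL4 and VEGFB for TGF-beta1, and ANGPT1 and ANGPTL4 for hypoxia.

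By the distance between the 2 log2 differences from untreated, the genes most like each called factor were listed among 8158 genes above the floor in either comparison. The nearest to ANGPTL4 were the mast-cell tryptase gene TPSB2 (0.33), the stress cytokine gene GDF15 (0.35) and BMP4 (0.68), but with TGF-beta1 ANGPTL4 and TPSB2 read 54.8 and 53.5, near the table's minimum, so these distances are not settled. ADM had 128 genes within a distance of 0.5, the nearest being TWSG1, ADAMTSL4 and EPHA2. For THBS1 there were 617, led by STX4, PLOD2 and S100A3, for SERPINF1 373, led by DLL1, TNC and LDAF1, and for VEGFC 743, led by CNTNAP3, CUTC and ZNF253. TPSB2 and CNTNAP3 have near-identical paralogs, so their signal can be shared. Likeness over 3 arrays is a description of these values.

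The receptors for these factors were mostly dim. Of 5 measured VEGF receptors and co-receptors, the neuropilins NRP1 and NRP2 were above the floor and FLT1, KDR and FLT4 were not, with values between 59.9 and 231. NRP1 read 10353 untreated, 8174 with TGF-beta1 and 8688 in hypoxia, within 1.5-fold throughout. NRP2, the co-receptor of VEGFC, read 734, 417 and 508, and its log2 difference of -0.82 with TGF-beta1 had an SD of 0.63 over its 3 features, all of the same sign. TIE1 and the adrenomedullin receptor parts CALCRL, RAMP1 and RAMP2 were below the floor, and the thrombospondin receptors CD36 and CD47 had no named feature.

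Other secreted factors gave counts in both directions. Of 5 pro-angiogenic factors above the floor with TGF-beta1, 1 was higher and 2 lower, with a list median of -0.55, where 12.6% of all genes were higher, 11.5% lower and the median was 0.05. In hypoxia 1 was higher and 2 lower, with a median of -0.34, where 8.64% of all genes were higher, 5.69% lower and the median was 0.05. CCN1, a matricellular integrin ligand, was higher on both arrays, at 3941 with TGF-beta1 and 4918 in hypoxia against the shared untreated value of 1337. MDK, the heparin-binding growth factor midkine, was lower on both, at 3213 and 4384 against the shared untreated value of 8746. The SD of its log2 difference over its 3 features was 0.29 and 0.11. ANG, the ribonuclease angiogenin, read 252 with TGF-beta1 against 576 untreated, and passed the floor in that comparison only through its untreated value. CXCL5, a neutrophil chemokine, read 671 in hypoxia against 1078 untreated. The chemokines CXCL1, CXCL6 and CCL2 and the 4 PDGF genes were below the floor.

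Inhibitors other than SERPINF1 and THBS1 were lower with TGF-beta1 in 4 of 5 cases above the floor, with 0 higher and a median of -0.65, where 11.5% of all genes were lower, 12.6% higher and the median was 0.05. TIMP3, a metalloproteinase inhibitor that blocks VEGF binding to KDR, read 2468 untreated, 1009.8 with TGF-beta1 and 3686 in hypoxia. VASH1, vasohibin, read 3487, 2118 and 3206, and COL18A1, the source of endostatin, 5892, 3749 and 4607. SEMA3A, a neuropilin ligand named after its values were seen, read 1728, 1117 and 1793. SPARC, the other one, was within 1.5-fold, and in hypoxia all 5 were within 1.5-fold of untreated, with a median of 0.05. Among 10 measured relatives of the factors, 3 were above the floor, and 1, ANGPTL8, was lower in hypoxia, at 534 against 972 (5.69% of all genes were lower). THBS3 and COMP were within 1.5-fold on all arrays.

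Oxygen sensing was examined because ANGPTL4, ADM and VEGFA are HIF targets. Of 8 HIF subunits and oxygen sensors above the floor, 1 was higher in hypoxia and 0 lower, against 8.64% and 5.69% of all genes. EPAS1, the HIF-2 alpha gene, read 539 untreated, 438 with TGF-beta1 and 1654 in hypoxia, a log2 difference of 1.62. HIF1A, regulated mainly at the protein level, read 1619.8 untreated and 1619 in hypoxia, and its 2 features differed in opposite directions. EGLN3, a prolyl hydroxylase and HIF target, read 923, 524 and 1192, and was the 1 of those 8 called lower with TGF-beta1, against 11.5% of all genes. Of 11 other hypoxia-induced genes above the floor, 1 was higher in hypoxia and 10 were within 1.5-fold, with a median of 0.02, and PFKFB4, a glycolytic regulator, was the one, at 897 against 555; all genes had 8.64% higher and a median of 0.05. With TGF-beta1 3 of the 11 were higher, LDHA, P4HA1 and PGK1, with a median of 0.38, against 12.6% of all genes and a median of 0.05. NDRG1 and BNIP3, known hypoxia-induced genes, differed by 0.02 and -0.14 in hypoxia.

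**Figure D4:**
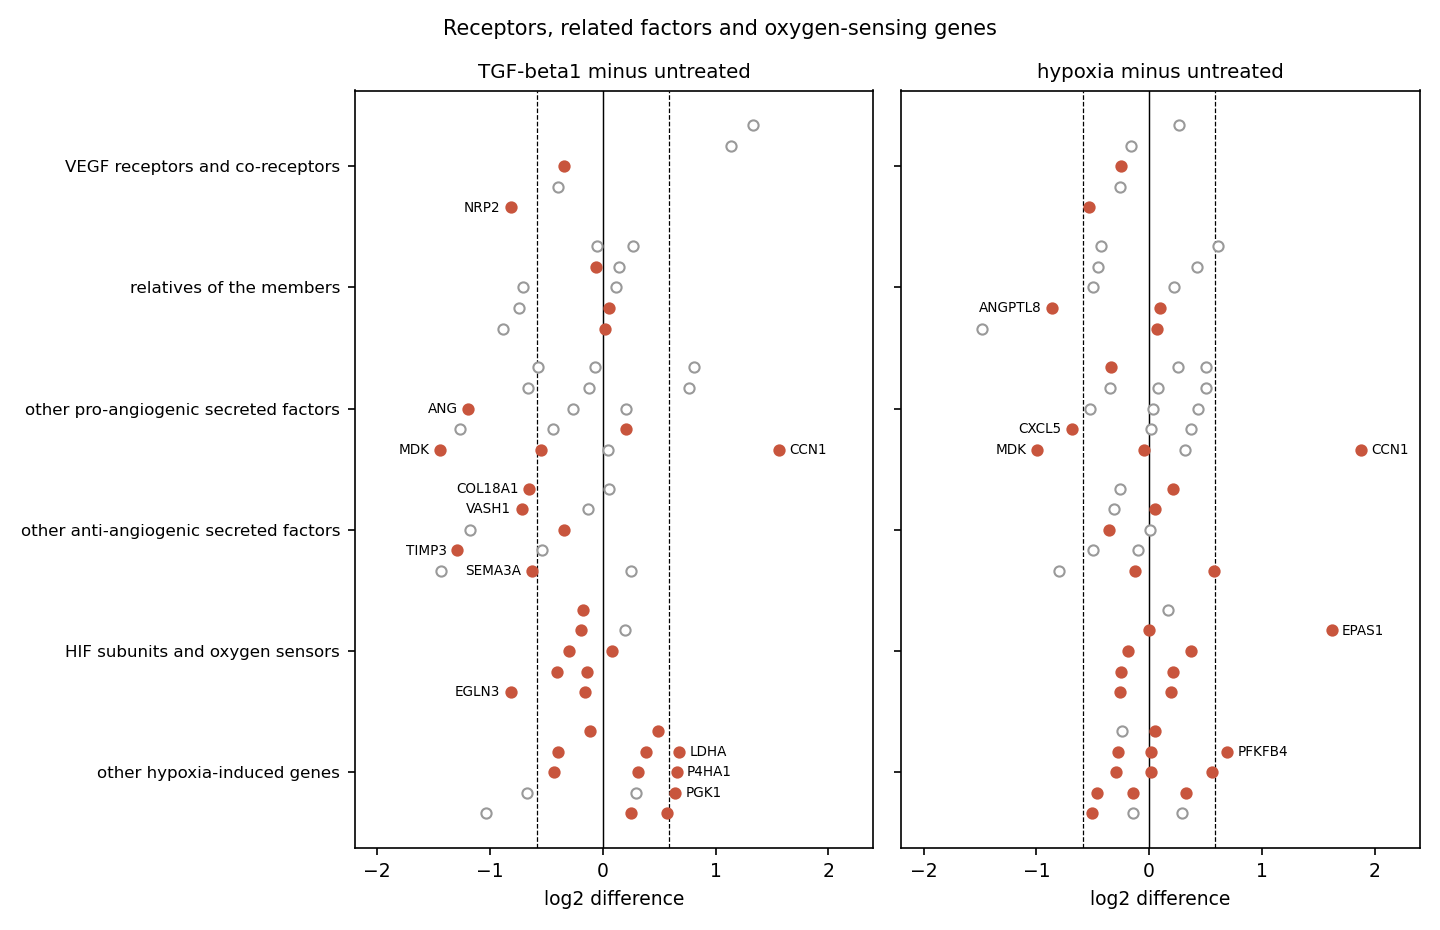
Log2 difference from the untreated array for each measured gene of 6 related lists, with TGF-beta1 (left) and in hypoxia (right); filled points are above the floor, open points below, and dashed lines mark 1.5-fold, with called genes named. EPAS1 (1.62) and CCN1 (1.88) stand farthest to the right in hypoxia, and the filled points left of the line with TGF-beta1 include 4 inhibitors.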

How the data were processed

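The values are linear intensities deposited by the authors, for 38572 features on 3 arrays, made from NimbleGen one-colour (Cy3) hybridisations per the labels' protocols. Background correction, probe summary, normalization, filters and the array's genome build were not given in the sources used here. From the values, the feature medians were 383 (untreated), 363 (TGF-beta1) and 395 (hypoxia) and no value was below 50, so the table was taken as normalized. There are no detection calls, and precision is limited by having 3 arrays.

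Features were named by the platform annotation, updated through Entrez identifiers (15623), or by RefSeq accession (593), and 22356 stayed unnamed. Values were log2 transformed without a pseudocount and averaged over a gene's features (Python 3.11.15, pandas, numpy, and statsmodels for loess). A gene was called at 1.5-fold or more where the brighter array reached the median of its gene values. The share of all named genes called by that rule was computed as the background of the counts. Noise was gauged as the SD of the log2 difference between features of genes with several features, in 5 level bins.

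The factors and lists were chosen with earlier results of these data known. Genes outside the factors were named where they were called against untreated in a list (at most the 3 largest per list and comparison) or nearest to a called factor. HIF1A, NDRG1, BNIP3, ALPL, THY1, the other marker genes, the other receptors, CXCL1, CXCL6, CCL2, the PDGF genes, SPARC, THBS3, COMP and SEMA3A were named after their values were seen.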

Additional observations from a re-analysis of the deposited data

How the results depend on the processing

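Of 108 values of single factors under the 3 scalings and the added 50, 107 moved by less than the SD between features, and all kept their sign. Adding 50 cannot change the sign of a difference by construction, so the signs were open to change only under the 3 scalings. The median over features, the brightest feature and platform symbols alone return the same values by construction, since each factor has 1 feature. The exception was ANGPTL4 for TGF-beta1 minus hypoxia, at -2.73 with 50 added before log2. Without the floor, ANGPTL4 joined SERPINF1 as lower with TGF-beta1 (2 factors), VEGFB joined ANGPTL4, ADM and THBS1 as higher in hypoxia (4 factors), ANGPT1 was lower there (1 factor), and ANGPT1 was higher for TGF-beta1 minus hypoxia (1 factor). At 2-fold, 0 factors were higher with TGF-beta1 and 3 lower for TGF-beta1 minus hypoxia. VEGFC was called higher for TGF-beta1 minus hypoxia (1 factor) under median centring, quantile normalization and loess centring, and the median over factors there was -0.74 under median centring. Median centring also moved the split of all genes called: with TGF-beta1 to 15.9% higher and 9.24% lower, from 12.6% and 11.5%, and in hypoxia to 7.10% and 7.18%, from 8.64% and 5.69%. Counts over all genes at 1.5-fold depended on the floor. Without it they were 1952 higher and 2226 lower with TGF-beta1 (998 and 912 with it), 1664 and 1306 in hypoxia (676 and 445) and 2006 and 2602 for TGF-beta1 minus hypoxia (1047 and 1213). With both arrays above it they were 658 and 553, 462 and 274, and 751 and 804. At 2-fold they were 258 and 307, 129 and 77, and 259 and 455. No paired analysis was possible because each group has 1 array. The cause of these changes was not tested beyond the construction of each setting. Dim factors (VEGFB, ANGPT1 and ANGPTL4) have no detection calls.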

Other observations

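Among related genes that lay below the floor, some differed widely between arrays, and with no detection calls their differences are given as values only. THBS2, the closest relative of THBS1, read 329 untreated, 196 with TGF-beta1 and 118 in hypoxia, while THBS1 was brightest in hypoxia. PDGFA, a mesenchymal mitogen, read 343 untreated, 143 with TGF-beta1 and 348 in hypoxia. The VEGF receptor genes FLT1 and KDR read 169 and 170 with TGF-beta1, against 67.1 and 77.3 untreated and 59.9 and 64.5 in hypoxia. These genes were chosen after their values were seen.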
